A study of Mus musculus with 2 samples.

Results

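The Trim genes examined here are 8 interferon-linked members of the tripartite motif family. They are Trim5, Trim12a, Trim12c, Trim30a, Trim30d, Trim34a, Trim21 and Trim68, and lie in a stretch of mouse chromosome 7 that also holds many other genes. They were picked by name after earlier results of these arrays were known, so their difference between the arrays chose them and is given as a description. All 8 were measured, among 18193 genes in all, by 17 of the 45101 probe sets. Of these, 14 named a single gene and 3 named several Trim genes, which are reported apart. The arrays held RNA of B cells from male mice of C57 background (Jackson Laboratory), 1 array titled as miR-155 knockout and 1 as wild-type. The study's design text calls the cells cultured and activated and names no stimulus, while its growth protocol describes progenitors kept for 6 days with granulocyte colony-stimulating factor and stem cell factor. All cells, those of both genotypes, had received cycloheximide, an inhibitor of translation, at 100 ug/ml for 8 min before harvest. The ages of the animals, the number pooled and the design of the deleted allele were not given in the labels. The comparison asks which transcripts differ with loss of miR-155, a microRNA that B cells induce on activation. Its mature strand, shown to identify the deleted regulator with its seed (bases 2 to 8) in capitals, lies on chromosome 16 (RefSeq, GRCm38.p6, chr16:84714143-84714165, plus strand).
miR-155-5p: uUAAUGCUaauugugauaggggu

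Tripartite motif proteins carry a RING domain that transfers ubiquitin, a B-box and a coiled coil, and many end in a PRY-SPRY domain that binds a target. Primate TRIM5 binds the incoming capsid of retroviruses, and mouse Trim5, Trim12a and Trim12c are its closest relatives in the mouse. Interferons raise many of these genes through factors that bind the interferon-stimulated response element (ISRE) in their promoters. The chromosome 7 cluster has expanded by tandem duplication in the mouse, so several of its members are close paralogs and a probe set may read more than 1 of them.

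The genotype labels contradicted each other. The titles and genotype entries give the assignment used here, the source names give the opposite one for both arrays, and every sign below turns over if the source names are right. Mir155hg, the host transcript of miR-155, read 10.88 on the array titled knockout and 6.63 on the other, at least 18.0-fold higher on the former against the level for expression, so the targeted gene went against the label. Where its probe set lies relative to the deletion was not determined here. All values are log2 intensities as deposited, and each difference subtracts the level on the array titled wild-type from that on the array titled knockout. A gene counted as expressed where its mean level reached 6.71, which is the median level of the probe sets left after removal of controls, as 10717 genes did. With 1 array per genotype there are no replicates, no difference could be tested, and each value is a single measurement. Over expressed genes the difference had a median of 0.03, an SD of 0.19 and a central 95% from -0.39 to 0.37. As a check of the cell type label, 9 of 9 measured B cell markers, such as Ms4a1, Cd79a, Cd79b and Pax5, were at or above 6.71 on both arrays, as were 7 of 9 macrophage and monocyte, 5 of 8 dendritic cell, 3 of 9 neutrophil and 3 of 7 stem and progenitor markers. For comparison, 10717 of all 18193 genes reached 6.71 on their mean level. A marker above that level thus does not by itself show that cells of its type were present.

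The 30 bases around the ISRE core of each promoter are shown because they are a feature that most of the 8 genes shared. The genes are interferon-linked by choice, so the share holding this core is not independent of that choice. The core was searched as GAAANNGAAA on both strands of the RefSeq promoter windows (GRCm38.p6, 250 bases before to 50 after each transcript start). The gene's strand is printed, and capitals mark the core, which reads TTTCNNTTTC where it lies on the other strand.
Trim5: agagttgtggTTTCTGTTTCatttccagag
Trim12a: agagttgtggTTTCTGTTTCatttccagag
Trim12c: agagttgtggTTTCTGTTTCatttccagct
Trim30a: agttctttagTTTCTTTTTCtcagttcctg
Trim30a inner start: ttgtttttagTTTCTTTTTCtcagttcctg
Trim30d: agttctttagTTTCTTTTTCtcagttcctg
Trim34a: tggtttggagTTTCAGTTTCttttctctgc
Trim21: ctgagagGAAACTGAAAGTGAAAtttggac

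These stretches lie at chr7:104288136-104288165 (minus strand) for Trim5, chr7:104315466-104315495 (minus) for Trim12a, chr7:104353359-104353388 (minus) for Trim12c, chr7:104465210-104465239 and chr7:104446104-104446133 (minus) for Trim30a, chr7:104507871-104507900 (minus) for Trim30d, chr7:104244457-104244486 (plus) for Trim34a and chr7:102565447-102565476 (minus) for Trim21. Thus 7 of the 8 genes held at least 1 match in a window, and Trim68 held none. Of all 32851 promoter windows of this length, 3.44% held the core, and of the 48 other Trim genes with a window 2 did (4.17%). On the list of interferon-response genes described below, 17 of the 36 with a window did (47.2%). The windows of Trim5, Trim12a and Trim12c were near copies of each other, as were those of Trim30a and Trim30d. Their matches are thus not independent, and the share of all windows counts windows, not genes. The core sat close to the transcript start in each case. It began 49 bases before the start in Trim5 (position -49), at -29 in Trim12c, at -36 in Trim30a and at -41 in Trim30d. In Trim12a and Trim34a it began at base 11 after the start, in the inner window of Trim30a at base 3, and in Trim21 a pair of overlapping cores began at bases 14 and 20. A match is a description of the letters and does not show that a factor was bound.

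**Figure D1:**
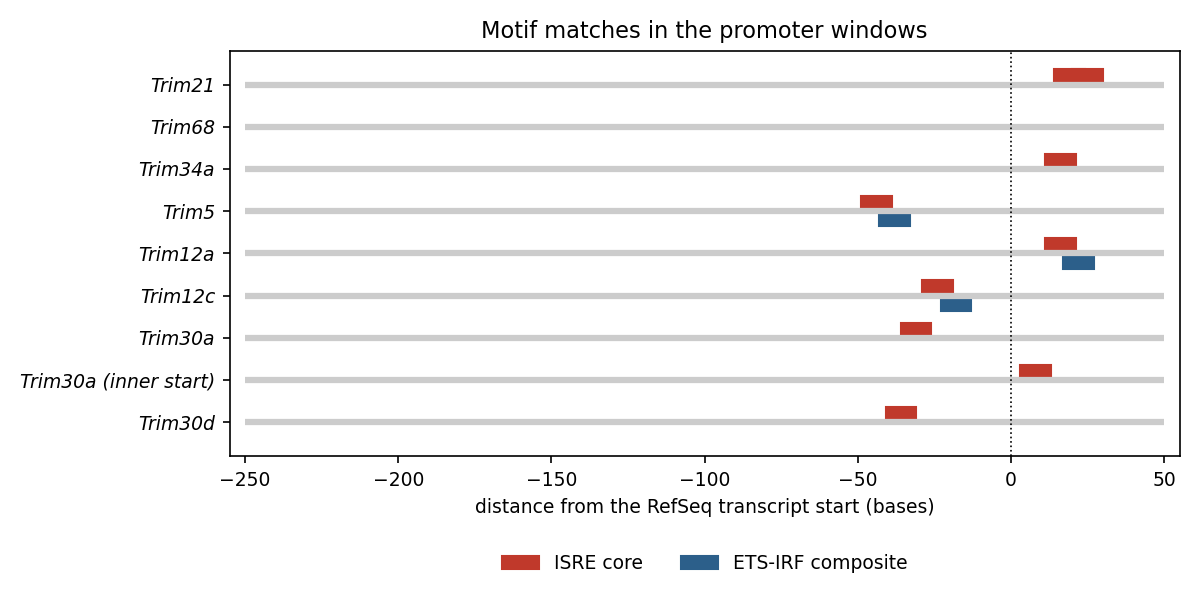
Matches to the ISRE core (red) and to the ETS-IRF composite motif (blue) in the promoter windows of the 8 Trim genes, with the distance from the RefSeq transcript start in bases on the horizontal axis and 1 row per window. All red boxes lie between 49 bases before and 29 bases after the start, Trim68 has none, and the blue boxes overlap the red ones in Trim5, Trim12a and Trim12c alone.

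The retroviral restriction relatives Trim5, Trim12a and Trim12c gave unequal differences. Trim5 read 7.24 on the array labelled knockout against 8.54 on the array labelled wild-type, a difference of -1.31 (2.47-fold lower). For Trim12a, the brighter probe set (1437432_a_at) had levels of 9.53 and 10.99, a difference of -1.46 (2.75-fold lower). Both were thus low on the array labelled knockout by more than 2-fold. The second Trim12a probe set (1420648_at) differed by much less, with levels of 7.20 and 7.44 and a difference of -0.24. Trim12c, a close paralog of Trim12a, was level on both arrays. Its brighter probe set (1443858_at) read 12.28 and 12.29, a difference of -0.01. Its second set (1445271_at) read 9.80 and 10.08, a difference of -0.29.

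The Trim30 genes also differed from each other. Trim30a encodes an interferon-induced ligase known to restrain NF-kB signalling through degradation of the adaptors TAB2 and TAB3. Its probe sets read 12.87 on the array labelled knockout against 13.30 on the array labelled wild-type (1417961_a_at, -0.43) and 12.40 against 12.72 (1451860_a_at, -0.33). Trim30d, its neighbour and paralog, read 9.88 against 11.37 (1435665_at, -1.48, 2.80-fold lower) and 9.04 against 10.47 (1438716_at, -1.43, 2.69-fold lower). The probe sets of each gene were close to each other, and both genes gave lower values on the array labelled knockout. A probe set naming Trim30d and Trim30a together read 11.52 against 12.14, a difference of -0.62 that lay between those of the single genes. It was designed from the same source sequence as 1 of the Trim30d sets, so these sets may not be independent readings.

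Trim34a, an interferon-induced gene of the same branch, depended on the probe set. Its brighter set (1424857_a_at) read 9.70 on the array labelled knockout against 10.84 on the other, a difference of -1.14 (2.20-fold lower). The other single-gene set (1426093_at) went the opposite way, with 7.23 against 6.95, a difference of 0.28. The 2 sets that name Trim34b as well as Trim34a were both lower on the array labelled knockout. The first read 9.40 against 10.13 (-0.73) and the second 7.50 against 8.22 (-0.72). The second shares its source sequence with the set at 0.28. Hence 3 of the 4 sets that name Trim34a were lower, but those naming it alone went opposite ways. No probe set names Trim34b alone, so the shared sets cannot be assigned to either gene.

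Trim21 and Trim68 stand at the other end of the group and differed little. Trim21 encodes a cytosolic antibody receptor and is the Ro52 autoantigen. Its probe sets read 10.14 against 10.46 (1448940_at, -0.33) and 10.05 against 10.12 (1418077_at, -0.08), lower on the array labelled knockout in both. They share a source sequence, so they may not be independent readings. Trim68, which encodes a ubiquitin ligase also known as an autoantigen, read 7.81 against 7.75, a difference of 0.06. It was the sole member whose value for the gene was not lower on the array labelled knockout.

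**Figure D2:**
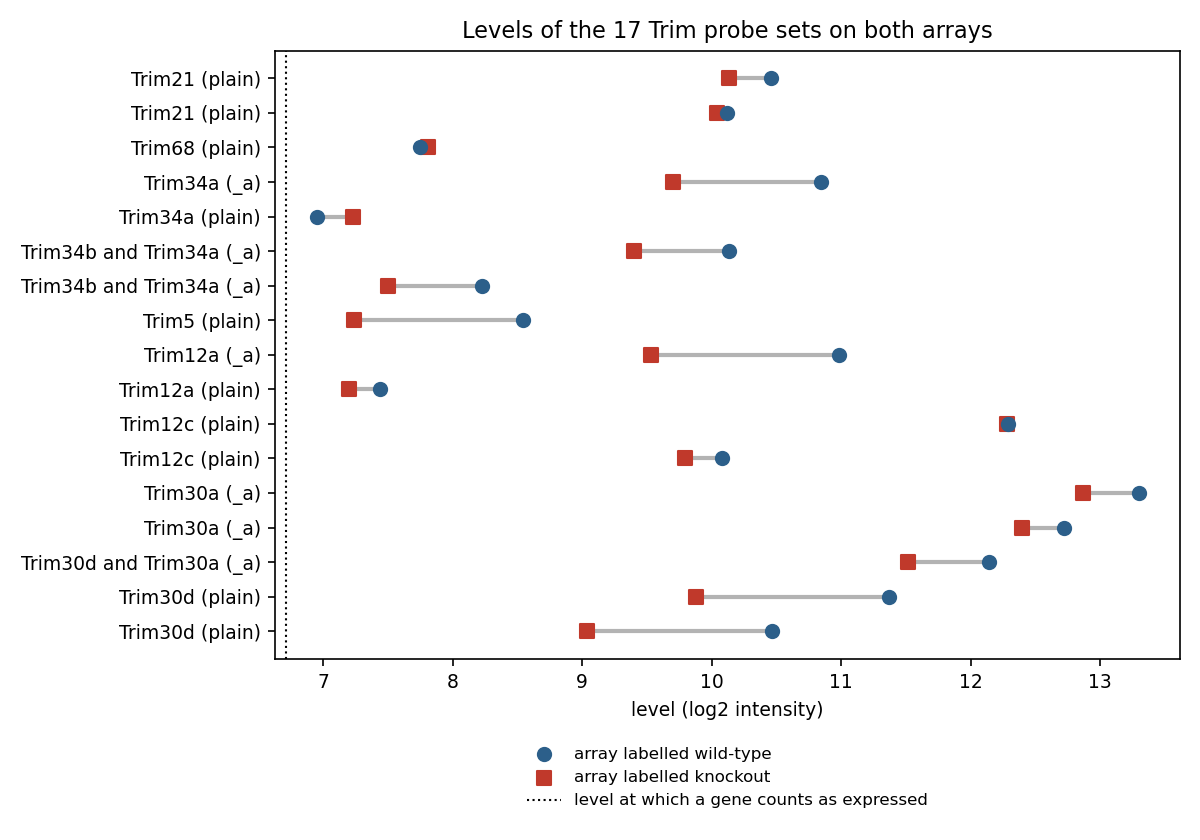
Levels (log2 intensity) of the 17 probe sets that name the 8 Trim genes, with 1 row per probe set, blue circles for the array labelled wild-type and red squares for the array labelled knockout, joined by a grey line. Plain marks a set with the suffix _at and _a a set with the suffix _a_at, and the dotted line is the level of 6.71 at which a gene counts as expressed. The squares lie left of the circles in 15 of the 17 rows, with the longest lines for Trim30d, Trim12a, Trim5 and Trim34a.

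Over the 17 probe sets, 15 were lower and 2 higher on the array labelled knockout, 8 were lower by 0.5 or more and 5 by 1 or more. Of the 22519 expressed probe sets 1.09% were lower by 0.5 or more and 0.102% by 1 or more, and of the 10717 expressed genes 42.1% were lower by any amount. All 17 were above 6.71 on both arrays. Taking for each gene its single-gene probe set with the highest mean level, 4 of the 8 genes (Trim30d, Trim12a, Trim5 and Trim34a) were lower by 1 or more, that is by 2-fold or more, and the same 4 by 0.5 or more. Of all 10717 expressed genes 0.140% were lower by 1 or more and 1.31% by 0.5 or more. These 4 held places 5, 6, 8 and 11 among the 10717 genes ordered from the lowest difference, Trim30a place 210, Trim21 place 415, Trim12c place 4337 and Trim68 place 6519. The median over the 8 was -0.78, against 0.03 over all expressed genes. Since this contrast chose the genes, nothing is read from these counts about the group.

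Which probe set stood for a gene decided 2 of the 4 large differences. With the plain _at sets alone, which leave out Trim30a, the median over 7 genes was -0.24 and 2 genes, Trim5 and Trim30d, were lower by 1 or more. Under that choice Trim34a turned to 0.28 and Trim12a stood at -0.24. Trim5 and Trim68 had only a single probe set each, so the choice of set could not change their values. With the mean of each gene's single-gene sets the median was -0.40, with Trim12a at -0.85 and Trim34a at -0.43. The single-gene sets of Trim34a were 1.42 apart and those of Trim12a 1.21 apart. Among the 4906 genes with several expressed probe sets, 2 had a range as wide as that of Trim34a and 4 as wide as that of Trim12a, both counts including the gene itself. The differences from a gene's brightest pair of probe sets were typically 0.084 apart (median), with a 95th percentile of 0.31. By the same measure the sets of Trim30d (0.05 apart) and Trim30a (0.10 apart) were near each other. Probe sequences were not used here, so which paralogs and which transcript ends each set reads was not determined.

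**Figure D3:**
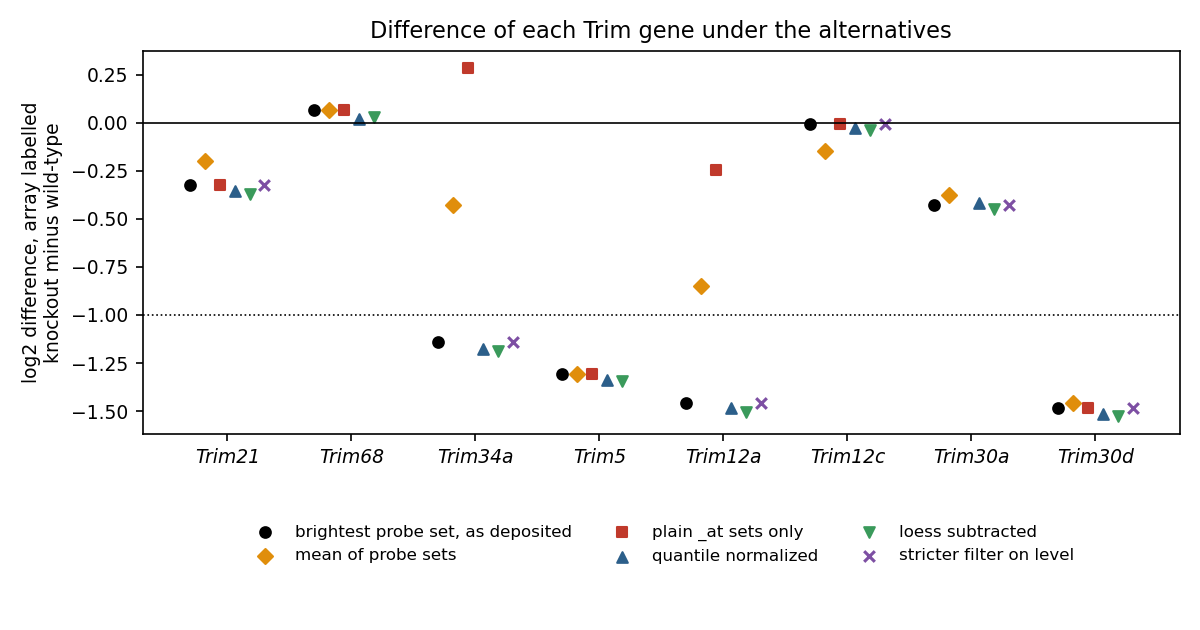
Log2 difference of each of the 8 Trim genes, array labelled knockout minus wild-type, in chromosome order, with 1 symbol per way of processing the values and a dotted line at a 2-fold lower level. The processing without a filter on level gave the same values as the black circles and is not drawn. Trim30a has no plain set, and the stricter filter on level removes Trim5 and Trim68. Trim5 and Trim30d stay between -1.53 and -1.31 wherever they are drawn, though Trim5 has only a single probe set. Trim34a ranges from -1.18 to 0.28 and Trim12a from -1.50 to -0.24.

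In gene order the low values were not continuous. RefSeq places 149 genes from Trim21 to Trim30d, of which 109 are olfactory receptor genes and 12 are Trim genes, the other Trim genes being Trim6, Trim34b, Trim30b and Trim30c. Only 20 of the 149 had a probe set of their own, and the 8 that were expressed were the 8 Trim genes described here. None of the 7 olfactory receptor genes with a probe set was expressed, and Trim6 was below the level for expression. Trim21 (-0.33) and Trim68 (0.06) came first in this order. Trim34a (-1.14), Trim5 (-1.31) and Trim12a (-1.46) followed as 3 low neighbours. After them came Trim12c (-0.01), then Trim30a (-0.43) and last Trim30d (-1.48), so Trim12c, near 0, lay inside the stretch of low genes. The 5 expressed genes on each side ranged from -0.22 (Apbb1) to 0.30 (Rrm1), with a median of -0.02. The expressed genes before Trim21 were Nup98 (-0.06), Pgap2 (0.04, but -0.03 with the mean of its sets and -0.01 after loess), Rhog (-0.12), Stim1 (-0.02, but 0.06 with the mean and 0.14 with plain _at sets) and Rrm1, which encodes a subunit of ribonucleotide reductase. Those beyond Trim30d were Fam160a2 (-0.02), Cckbr (-0.12), Smpd1 (0.12), Apbb1 and Trim3 (0.24). A probe set that names both Gm38525 and Trim30b read 6.55 against 7.07, a difference of -0.52, with the lower level under 6.71.

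**Figure D4:**
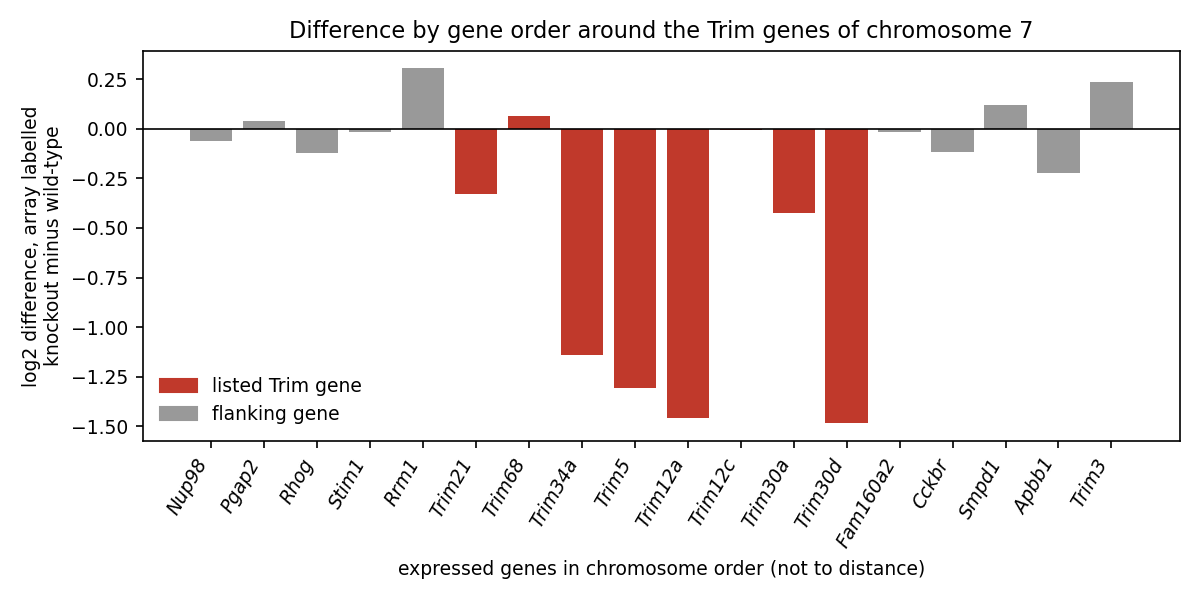
Log2 difference, array labelled knockout minus wild-type, of the expressed genes along chromosome 7 in their RefSeq order, not to distance, with the 8 Trim genes in red and the 5 nearest expressed genes on each side in grey. The grey bars stay between -0.22 and 0.30, and the red bars below -1 belong to Trim34a, Trim5, Trim12a and Trim30d, with no visible bar for Trim12c (-0.01).

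Several promoter windows were nearly identical. Those of Trim5 and Trim12a shared a stretch of 241 bases without a mismatch. These genes differed by -1.31 and -1.46 between the arrays, though the second Trim12a probe set differed by -0.24. Trim12c was 94.6% identical to Trim12a over 261 aligned bases and 94.2% to Trim5 over 278. Trim30a and Trim30d were 93.9% identical over 294 bases. The 250 bases before the start are printed for Trim5 (chr7:104288107-104288356, minus strand) and Trim12c (chr7:104353350-104353599, minus), and for Trim30a (chr7:104465194-104465443, minus) and Trim30d (chr7:104507850-104508099, minus), as pairs of like sequence that were picked for unlike differences after their values were seen. Capitals mark the ISRE core as above.
Trim5: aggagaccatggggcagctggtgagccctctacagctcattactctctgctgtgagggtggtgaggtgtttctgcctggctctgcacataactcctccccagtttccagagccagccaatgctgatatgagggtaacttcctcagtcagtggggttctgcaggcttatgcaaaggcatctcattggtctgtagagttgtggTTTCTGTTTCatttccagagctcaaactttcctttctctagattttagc
Trim12c: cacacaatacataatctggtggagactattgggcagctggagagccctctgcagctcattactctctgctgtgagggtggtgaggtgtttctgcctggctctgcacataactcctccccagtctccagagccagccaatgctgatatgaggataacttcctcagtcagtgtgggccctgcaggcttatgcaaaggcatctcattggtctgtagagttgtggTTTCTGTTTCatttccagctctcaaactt
Trim30a: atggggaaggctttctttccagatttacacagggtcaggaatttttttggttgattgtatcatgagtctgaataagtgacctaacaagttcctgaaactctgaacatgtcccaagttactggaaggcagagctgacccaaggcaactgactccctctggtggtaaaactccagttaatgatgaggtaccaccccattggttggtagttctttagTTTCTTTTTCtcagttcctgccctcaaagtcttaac
Trim30d: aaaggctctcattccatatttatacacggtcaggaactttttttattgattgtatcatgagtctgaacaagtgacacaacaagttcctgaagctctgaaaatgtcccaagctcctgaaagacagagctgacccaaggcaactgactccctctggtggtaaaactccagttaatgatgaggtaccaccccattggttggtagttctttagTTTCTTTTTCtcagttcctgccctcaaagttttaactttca

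The first pair held the same core and differed by -1.31 and -0.01, though the second Trim12c probe set differed by -0.29. The second pair held the same core and differed by -0.43 and -1.48. Of the 7 genes with the core, 4 were lower by 1 or more, Trim30a and Trim21 by less, and Trim12c was level, while Trim68, the 1 gene without it, was at 0.06. Since the differences chose these genes, nothing is read from this about the core. A composite of an ETS and an IRF site, searched as GGAANNGAAA on both strands, overlapped the core in Trim5, Trim12a and Trim12c and was in none of the other 5. It was found in 2.72% of all windows. Counted by gene, it was in 5 of the 48 other Trim genes (10.4%) and 5 of 36 interferon-response genes (13.9%). An interferon gamma activated site, searched as TTCNNNGAA, and the NF-kB consensus were found in 8.30% and 5.80% of all windows and in 0 of the 8 genes. Counted by gene, the former was in 12.5% of the other Trim genes and 27.8% of the interferon-response genes. The latter was in 6.25% and 13.9%. With 8 genes, several with near-copy windows, nothing is read from these absences. The promoter windows of Trim34a and Trim21 had no long stretch in common with the others, as their longest alignments to another member spanned at most 81 bases.

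Other tripartite motif genes with a probe set of their own did not share these differences in size. Of 53 such genes outside the 8 with a probe set, 28 were expressed, 11 lower and 17 higher on the array labelled knockout (15 and 13 after a loess curve was subtracted). Their median was 0.03, which turned to -0.02 after loess and to -0.004 after quantile normalization. None was lower by 0.5 or more. The 53 leave out Trim34b, Trim30b and Trim30c of the same stretch of chromosome 7, which have no probe set of their own. The sets naming Trim34b with Trim34a differed by -0.73 and -0.72, and the set naming Trim30b with Gm38525 by -0.52. The lowest were Trim14 (10.71 against 10.97, -0.27), an adaptor of antiviral signalling, and Pml (11.52 against 11.76, -0.24), the organiser of PML nuclear bodies, both linked to interferon. The highest were Mid1 (9.85 against 8.91, 0.93), which encodes a ligase of microtubules, and Trim37 (10.20 against 9.71, 0.49), which encodes a ligase of centrosomes and peroxisomes. The 5 probe sets of Trim37 were all higher, from 0.23 to 0.72. The other sets of Mid1 were not expressed, and the mean of all its sets was 0.20.

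Most interferon-response genes read slightly less on the array titled knockout, though no test was possible. Of 42 expressed members of that list 41 were lower, against 42.1% of all expressed genes, and their median was -0.26, against 0.03. A difference of -0.5 or beyond was seen in 6 of them (1.31% of all genes) and one of -1 or beyond in 2 (0.140% of all). The lowest were Oasl2 (7.94 against 9.57, -1.63), a relative of the oligoadenylate synthetases, and the chemokine gene Cxcl10 (12.40 against 13.44, -1.05). The other 4 lower by 0.5 or more, named after their values were seen, were Xaf1 (-0.74), Oas3 (-0.68), Ifitm3 (-0.66) and Ifit2 (-0.64), of which Oas3, Ifitm3 and Ifit2 encode proteins that block steps of virus growth. The highest were Oasl1 (0.02, and -0.006 after loess), which limits interferon production, and the immunoproteasome gene Psmb8 (-0.01, and 0.006 with the mean of its sets).

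**Figure D5:**
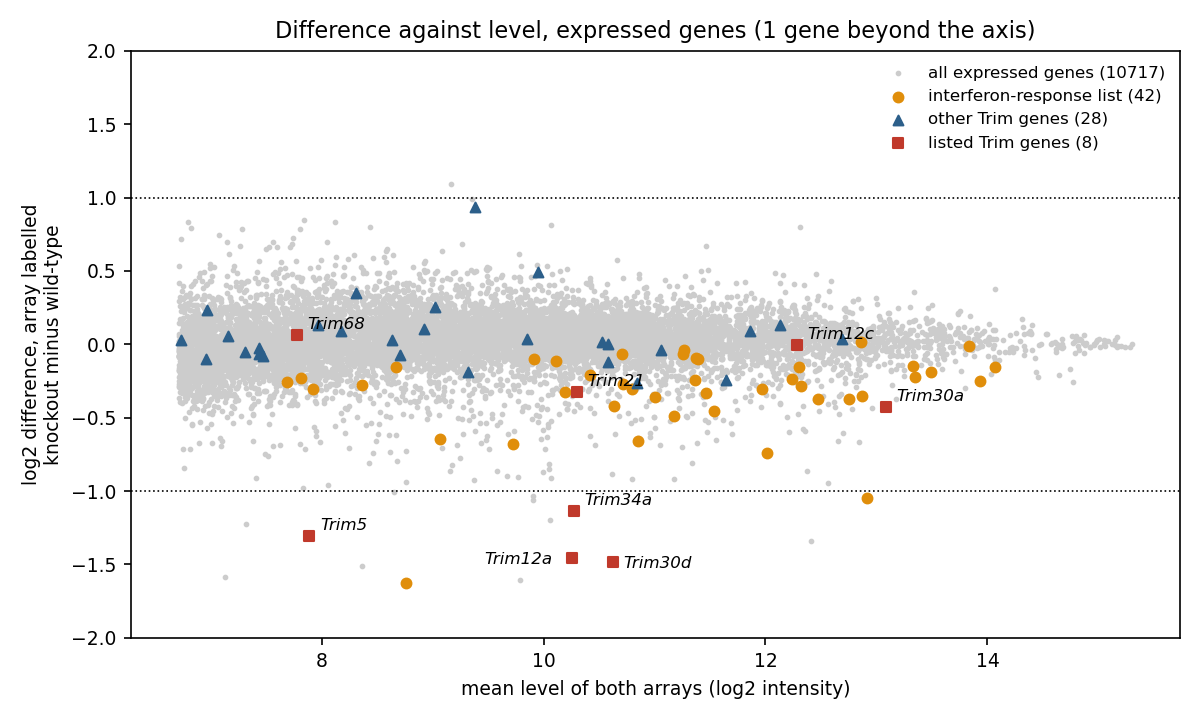
Log2 difference, array labelled knockout minus wild-type, against the mean level of both arrays (log2 intensity) for the 10717 expressed genes (grey), the interferon-response list (orange), the other Trim genes (blue) and the 8 Trim genes (red), with dotted lines at 2-fold. The 4 lowest red squares and 2 orange points lie below the lower line, at levels from below 8 to above 12, while Trim12c and Trim68 lie within the grey cloud.

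Genes that work with these ligases had a median difference near 0. The list of substrates, ubiquitin-conjugating enzymes and signalling partners of TRIM21, TRIM30, TRIM5 and TRIM68 had 29 expressed members, 18 lower and 11 higher (22 and 7 after loess), with a median of -0.02. Of all expressed genes 42.1% were lower, or 52.6% after loess. Ube2d1, which encodes a conjugating enzyme used by many RING ligases, was the 1 member lower by 0.5 or more (8.87 against 9.56, -0.68), as 1.31% of all expressed genes were. The next was Tab2 (12.98 against 13.36, -0.38), the adaptor that TRIM30a is known to degrade. Irf7 (-0.33) is on the interferon-response list as well, so the lists are not fully separate. The highest were the conjugating enzyme gene Ube2e1 (0.19) and the NF-kB kinase gene Ikbkb (0.11, and just below 0 with the mean of its sets).

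Markers of other cells differed slightly between the arrays. For comparison, 42.1% of all expressed genes had a difference below 0, and their median was 0.03. Macrophage and monocyte markers were lower on the array labelled knockout in 6 of 8 expressed members of 9 measured, with a median of -0.22, and their summed linear intensity was 1617 against 1874. Each such sum covers all measured markers of its list, expressed or not, while counts and medians cover the expressed ones. Itgam was not expressed. Dendritic cell markers were lower in 4 of 5 expressed of 8 measured, with a median of -0.27 and sums of 10541 against 12026. Of these, Itgax, Xcr1 and Siglech were not expressed, and Bst2 is on the interferon-response list as well. Ccr7 (12.26 against 12.34) and Bst2 (11.81 against 12.12) were the brightest dendritic cell markers and weigh most in that sum. B cell markers were higher in 8 of 9, with a median of 0.18 and sums of 57588 against 53215. Neutrophil markers were lower in 3 of 3 expressed of 9 measured, with a median of -0.05 and sums of 1410 against 1431. Stem and progenitor markers were higher in 2 of 3 expressed of 7 measured, with a median of 0.10 and sums of 3147 against 2871. Kit, Cd34, Gata2 and Meis1 were not expressed. Of the expressed ones, Hoxa9 was lower (-0.12), and Myb (0.10) and Lmo2 (0.17) were higher. Lmo2, at 11.35 against 11.18, was by far the brightest and weighs most in the sum. The part of these cell types in the Trim values was not tested. Fewer cells of a type and less RNA per cell cannot be told apart in such bulk RNA.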

How the data were processed

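RNA was labelled with the Affymetrix 3′ IVT Express kit, per the labels' protocols. The authors deposited log2 intensities of 45101 probe sets from 2 arrays. How they summarised and normalized them is not stated in any source used here. At the same rank the arrays differed by up to 0.0635, so a difference in total RNA would not be visible. Genes were assigned through the annotation of the platform (34945 with 1 gene, 932 with several, 9160 with none and 64 controls). Each gene took its single-gene probe set with the highest mean. Gene order and promoter sequences came from RefSeq tables of GRCm38.p6, which held windows for all 8 Trim genes. In 1677 of 1677 overlapping windows on opposite strands the sequences were reverse complements, so the table follows the gene's strand. Promoters were compared by local alignment. The genes and lists were chosen with earlier results of these data known. By rule the text names all probe sets of the 8, the 5 expressed genes on each side, and the 2 highest and 2 lowest of the interferon, partner and other Trim lists. Cell markers, 4 further interferon genes, Irf7 and the set naming Trim30b were named after their values were seen. No test was possible with 1 array per genotype, and precision is limited by that number. The scripts were tested on simulated data. Alternatives were the mean of probe sets, plain _at sets, quantile normalization, loess (span 0.3), no filter and a filter at the 75th percentile. Tools were Python 3.11.15, Biopython 1.88, pandas 2.3.3, matplotlib 3.10.9, NumPy 2.4.6 and statsmodels 0.14.6.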

Additional observations from a re-analysis of the deposited data

How the results depend on the processing

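With plain _at probe sets only, the median over the Trim genes was -0.24 instead of -0.78, 2 rather than 4 were lower by 0.5 or more and 2 rather than 4 by 1 or more, and Trim34a reversed to 0.28. With the mean of each gene's sets the median was -0.40 and 2 were lower by 1 or more. Both choices act through Trim34a and Trim12a, whose probe sets disagree, and the cause of that disagreement was not tested. Quantile normalization and loess kept each of the 8 directions (medians -0.80 and -0.82), while the share of all expressed genes that were lower moved from 42.1% to 50.7% and 52.6%. The medians of the interferon-response list (-0.30 to -0.25), the other Trim genes (-0.02 to 0.03) and the partner list (-0.05 to -0.02) moved by less than 0.084 under all 6 alternatives. No paired analysis was possible because each group held 1 array, and for the same reason no array could be left out. Signal over background limits Trim5, Trim68, the second sets of Trim12a and Trim34a, and the dimmer set naming Trim34b, whose levels lie nearest to 6.71.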

Other observations

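Outside the 8 Trim genes, 317 expressed genes held the ISRE core in a promoter window and 8359 had windows without it. Those with the core had a median difference of -0.01 and those without it 0.03. Of the former 2.84% were lower and 1.58% higher by 0.5 or more on the array labelled knockout, and of the latter 1.20% were lower and 0.586% higher. Within the interferon-response list, the 16 expressed genes with the core had a median of -0.28 and the 18 without it -0.17, and 3 of each were lower by 0.5 or more. The core was held by 17 of the 36 genes of that list with a window. These values describe the same 2 arrays and carry no test.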
